A study of Mus musculus with 20 samples.

Results

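A set of 10 histone chaperone genes outside the HIRA complex was followed in the livers of mice whose hepatocytes received Cas9 with a guide against Hira. The genes were Daxx, Atrx, Asf1b, Chaf1a, Chaf1b, Nasp, Dek, Ssrp1, Supt16 and Supt6, and each was taken from the count table by its gene symbol, which gave 10 of the 55421 genes listed. All 10 had enough counts to be among the 22867 genes tested. The 20 liver RNA-seq libraries formed 4 groups of 5. Mice of both arms were wildtype C57BL/6 animals labelled female, had reached 6 months of age when injected, and carried an AAV8 vector with Staphylococcus aureus Cas9 under the Tbg promoter, a hepatocyte promoter. The guide, driven by a U6 promoter in the same kind of vector, was directed against Rosa26, a locus used as a neutral target, in the control arm and against Hira in the HIRA arm. Livers were taken 3 weeks or 6 months after injection. The controls therefore also carried the vector and the nuclease, and the nuclease was directed to hepatocytes while RNA came from the whole liver. The main text of the study names male mice for this time course, whereas a legend of the study and the labels name females.

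Histone chaperones are proteins that bind histones outside the nucleosome and hand them to DNA or take them off it. Chromatin assembly factor 1 receives new histone H3-H4 from ASF1 and places it behind the replication fork, whereas HIRA, and DAXX with its partner ATRX, place the variant H3.3 independently of DNA synthesis. FACT and SPT6 act with RNA polymerase II, where they loosen and restore nucleosomes during transcription. Because most hepatocytes of an adult liver rest outside the cell cycle, the replication-linked members of the family are usually scarce in this tissue.

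Library totals ranged from 19916430 to 24079736 counts. Hepatocyte markers (6 genes, including albumin) summed to between 79400 and 158000 CPM (counts scaled to library size) in the 20 libraries. Hira itself had a log2 fold change of -0.48 ± 0.14 (SE) at 3 weeks, with all 5 HIRA libraries (4.15 to 5.95 CPM) below all 5 controls (6.04 to 8.54 CPM), and an edgeR adjusted p of 0.197. At 6 months it was -0.10 ± 0.14, with overlapping groups (4.96 to 6.51 against 4.82 to 7.32 CPM) and an edgeR adjusted p of 0.794, so the transcript level gave only a partial check of the labels. In the deposited FPKM Hira was 4.06 ± 0.636 in the Rosa26 group and 4.21 ± 1.0 in the HIRA group at 6 months (SD, n = 5), so the arms lay the other way round, and 4.76 ± 0.789 and 2.88 ± 0.384 at 3 weeks. Of the exon bases of Hira 44.7% are also exons of Gm28539 on the same strand, which had 0 counts, so the level of Hira is uncertain. The library labelled HIRA 6 months replicate 5 went against its sex label, with 9 counts of Xist where the other 19 libraries had at least 6286. Replicate 3 of the Rosa26 group at 6 months stood apart in immune markers. Its Kupffer cell markers summed to 1430 CPM, against 198 to 342 CPM in the other 4 livers of its group. Replicate 4 of the HIRA group at 6 months was also high in them, at 845 CPM against 120 to 385 CPM in its group. Replicate 3 of that group stood apart in stellate cell markers (5 genes, 641 CPM against 182 to 318 CPM) and in mitosis genes (58.2 against 12.9 to 28.0 CPM). The labels number the replicates and do not say more about them, so p-values measure the spread between these libraries.

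The level of each gene was set per kilobase of its exons (GENCODE M21, GRCm38), so that the genes could be ordered. A FACT subunit stood at the top and the 3 genes that supply histones to replicating DNA at the bottom. Ssrp1, a FACT subunit, was highest at 14.3 ± 0.899 CPM per kb (mean ± SD, n = 20), and it was above the next gene, Dek (8.41 ± 0.912), in all 20 libraries. Supt6, which encodes the elongation chaperone SPT6, was at 7.12 ± 0.555 and Daxx at 6.28 ± 0.61 CPM per kb. Dek was above Supt6 in 18 of 20 libraries and Supt6 above Daxx in 18 of 20, but the ranges of each pair overlapped. Supt16, the other FACT subunit, was at 3.36 ± 0.434, Nasp at 2.0 ± 0.353 and Atrx at 1.43 ± 0.118 CPM per kb.

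A gap of 3.73-fold separated Atrx from the lowest 3 members, with no overlap of their ranges. Asf1b was at 0.382 ± 0.145, Chaf1b at 0.313 ± 0.0688 and Chaf1a at 0.237 ± 0.0506 CPM per kb (n = 20 each). These 3 could not be fully ordered, since Asf1b was above Chaf1b in 14 libraries and Chaf1b above Chaf1a in 16. The highest member was 60.2 times the lowest. In the FPKM values deposited by the authors the order of 3 neighbouring pairs was the other way round. Daxx (8.57 ± 1.22 FPKM) was then above Supt6 (8.25 ± 0.735), Nasp (7.13 ± 1.36) above Supt16 (4.75 ± 0.618), and Chaf1b (0.751 ± 0.184) above Asf1b (0.572 ± 0.296).

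**Figure D1:**
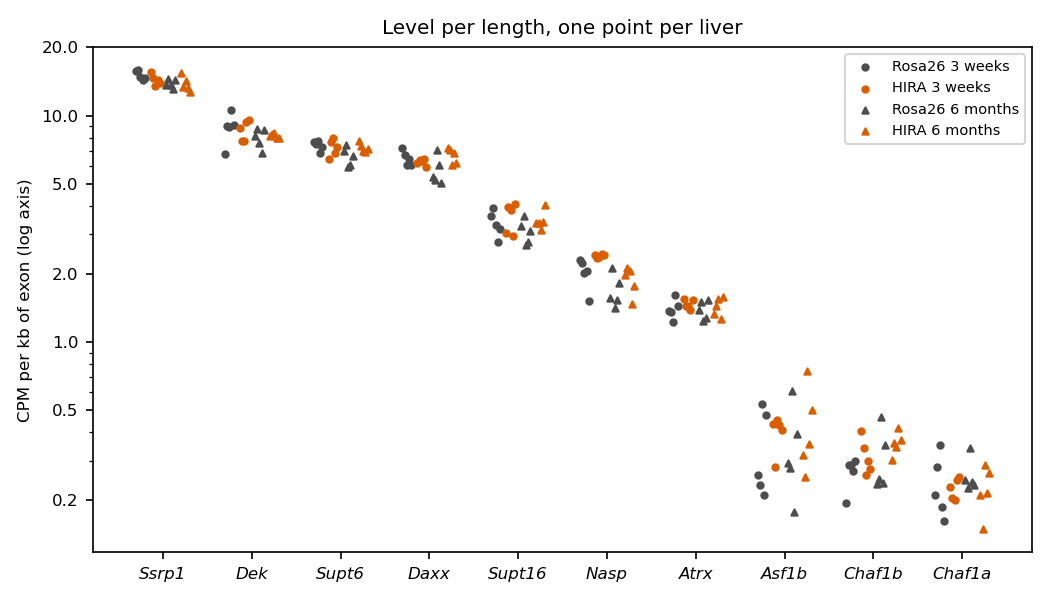
Level of the 10 genes in CPM per kb of exon (log axis), with 1 point for each of the 20 livers, coloured by guide and shaped by time after injection. Ssrp1 lay between 12.7 and 15.9 CPM per kb and Chaf1a between 0.149 and 0.35.

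The comparison of the guides at 3 weeks asks how the other chaperones stood early after the guide against Hira was delivered. No gene of the 10 passed edgeR at an adjusted p under 0.05, where 0.197% of all genes did, and none had an unadjusted p under 0.05, where 8.87% of all genes did. DESeq2 and limma-voom also called 0, and each had 1 member with an unadjusted p under 0.05, Nasp. The log2 fold changes ran from -0.07 (Ssrp1) to 0.25 (Nasp), 5 above 0 and 5 below, with a median of 0.02 beside -0.01 over all genes. In 1 member, Nasp, the libraries of the arms did not overlap, against 2.69% of all genes. All 10 of the 95% intervals lay within 2-fold in either direction and 8 lay within 1.5-fold, with Asf1b (0.71 to 1.92-fold) and Chaf1b (0.87 to 1.6-fold) the exceptions.

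The later comparison of the arms was made in livers that had carried the vector for 6 months. Again 0 of the 10 passed edgeR at an adjusted p under 0.05, beside 1.31% of all genes, and 0 passed DESeq2 or limma-voom. At an unadjusted p under 0.05 there was 1 member in edgeR (Daxx), as in both other tools, while 15.5% of all genes had such a p in edgeR. The fold changes were above 0 in 8 members and below 0 in 2, with a median of 0.14 on the log2 scale beside 0.03 over all genes. In no member were the arms without overlap, against 3.15% of all genes. Intervals lay within 2-fold for 9 members, all but Asf1b (0.76 to 2.03-fold), and within 1.5-fold for 7. In bulk tissue, fewer cells of a type and less RNA per cell cannot be told apart.

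**Figure D2:**
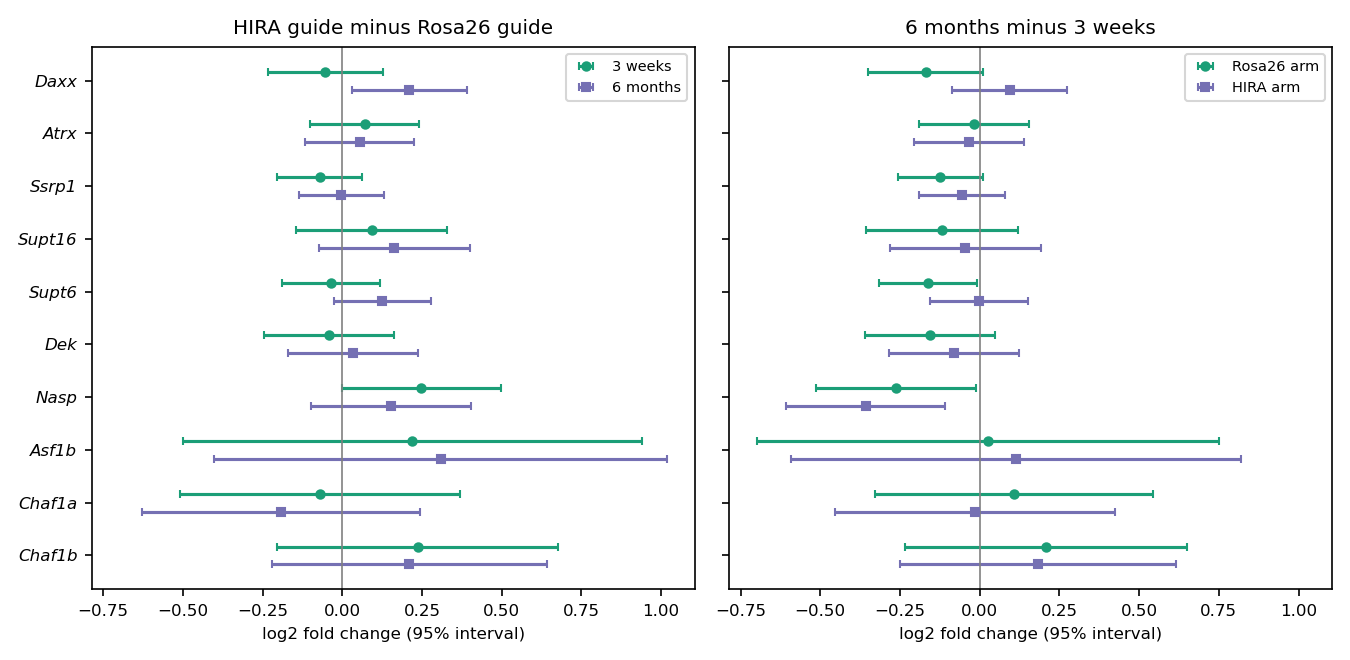
Log2 fold changes (x axis) with 95% intervals from edgeR for the 10 genes (y axis), for the HIRA guide minus the Rosa26 guide at 3 weeks and 6 months (left) and for 6 months minus 3 weeks in each arm (right). Intervals of Ssrp1 and Supt6 are the narrowest and those of Asf1b the widest, and 0 of the 40 changes passed an adjusted p of 0.05.

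The same 20 livers also give the change between 3 weeks and 6 months within each arm, and the livers of the later time were older. In the Rosa26 arm 0 of the 10 genes passed edgeR at an adjusted p under 0.05, beside 0.324% of all genes, and 0 passed DESeq2 or limma-voom. Nasp and Supt6 had an unadjusted p under 0.05 (2 members, in all 3 tools), beside 12.8% of all genes in edgeR. The fold changes were below 0 in 7 members, with a median of -0.12 beside 0 over all genes. The times overlapped in every member, and did not in 3.5% of all genes. In the HIRA arm 0 members passed edgeR, DESeq2 or limma-voom at an adjusted p under 0.05, beside 0.0656% of all genes in edgeR. Nasp was the 1 member with an unadjusted p under 0.05 in each tool, beside 8.95% of all genes, and the 1 member whose times did not overlap, beside 1.47%. The median over members was -0.02 beside 0.03 over all genes. The arms share no library, whereas each guide comparison shares 5 libraries with each comparison over time.

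The difference between the guide effects at 6 months and at 3 weeks was tested in the same fit. By edgeR 0 members passed at an adjusted p under 0.05, as did 0% of all genes, and DESeq2 and limma-voom gave 0 members too. Daxx was the 1 member with an unadjusted p under 0.05 in edgeR and in limma-voom, while DESeq2 gave 0, and 6.62% of all genes had such a p in edgeR.

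Daxx (ENSMUSG00000002307.16, chr17:33909414-33915590, plus strand) encodes the chaperone that recognises H3.3 and places it at telomeres and other repeats. At 6 months it had 16.9, 16.4, 22.2, 19.1 and 15.9 CPM in replicates 1 to 5 of the Rosa26 group. The HIRA group had 22.6, 22.2, 19.1, 21.5 and 19.5 CPM. Replicate 3 of the controls lay among the HIRA livers, and the other 4 controls reached 19.1 CPM, where the HIRA livers began. The means were 18.1 ± 2.61 and 21.0 ± 1.6 CPM (SD, n = 5), and the log2 fold change was 0.21 ± 0.09 (SE, edgeR p 0.0243, adjusted p 0.241). At 3 weeks the controls had 22.6, 21.0, 19.1, 20.2 and 19.0 CPM and the HIRA livers 19.4, 20.1, 19.8, 20.3 and 18.7 CPM. These groups overlapped and gave -0.05 ± 0.09 on the log2 scale (edgeR adjusted p 0.939). The guide effect differed between the times by 0.26 ± 0.12 on the log2 scale (edgeR p 0.0433, adjusted p 0.746).

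The value for Daxx at 6 months depended on the libraries that stood apart. Without Rosa26 replicate 3 the difference was 0.29 on the log2 scale (edgeR adjusted p 0.0758), and without HIRA replicate 5 it was 0.235 (adjusted p 0.178). It was 0.24 without HIRA replicate 3 (edgeR adjusted p 0.23) and 0.20 without HIRA replicate 4 (adjusted p 0.292). Leaving out other single libraries lowered it to as little as 0.17, and without Rosa26 replicate 2 it was 0.18 and no longer had an unadjusted p under 0.05 (edgeR p 0.0669, adjusted p 0.373). Leaving out Rosa26 replicate 3 with HIRA replicate 5 gave 0.32 ± 0.08, which passed the threshold (edgeR adjusted p 0.031), in a fit where 1076 of 22480 genes passed against 299 of 22867 in the fit with all libraries. Leaving out instead the liver with the most Kupffer cell markers in each arm (Rosa26 replicate 3 and HIRA replicate 4) gave 0.28 ± 0.08, which did not pass (edgeR adjusted p 0.108), and without all 3 it was 0.32 ± 0.09 (adjusted p 0.0612). These combinations were chosen after seeing the data. With the deposited FPKM and limma the difference was 0.33 ± 0.10 (limma adjusted p 0.131). The summed Kupffer cell markers (5 genes, all detected) were 198 to 1430 CPM in the Rosa26 livers and 120 to 845 CPM in the HIRA livers at 6 months. Their median log2 fold change between the arms was -0.26 beside 0.03 over all genes, with Rosa26 replicate 3 at 1430 CPM. The median of the sum was 240 CPM in the Rosa26 livers and 368 CPM in the HIRA livers, so the direction depended on the measure. Daxx and this sum correlated over the 20 libraries (Pearson r 0.52, Spearman rho 0.54), and r was 0.64 after centring on the group means and 0.56 without the 2 libraries farthest from the median sum. Median log2 fold changes between the arms at 6 months were 0.51 for 5 stellate cell and 0.3 for 4 endothelial markers. They were -0.72 for 2 neutrophil and -0.08 for 5 erythroid markers. The part of any of these cells in the Daxx values was not tested.

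The promoter of Daxx is shown because this gene had the smallest p at 6 months. The 250 bases before its first start site (RefSeq, GRCm38.p6) are written 5′ to 3′ on the strand of the gene, and capitals mark a match to CCAAT or its reverse complement ATTGG, the core of the NF-Y site. Such a match was present in 33.8% of 32851 promoter windows of the same length. Daxx has 3 listed start sites, and the windows of sites 2 and 3, which are not shown, held 0 matches.
Daxx, chr17:33909195-33909444, plus strand: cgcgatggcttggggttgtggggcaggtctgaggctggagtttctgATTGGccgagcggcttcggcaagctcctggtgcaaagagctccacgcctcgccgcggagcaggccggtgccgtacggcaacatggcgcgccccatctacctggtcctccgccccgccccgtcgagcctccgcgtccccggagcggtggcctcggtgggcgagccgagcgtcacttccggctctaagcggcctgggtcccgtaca

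Atrx (ENSMUSG00000031229.16, chrX:105797615-105929403, minus strand) encodes the remodelling ATPase that partners DAXX. Its 4 group means lay between 30.2 ± 2.78 and 32.0 ± 1.51 CPM (SD, n = 5), with 26.8 to 35.2 CPM over all libraries. The guide comparisons gave 0.07 ± 0.08 at 3 weeks and 0.05 ± 0.08 at 6 months on the log2 scale (edgeR adjusted p 0.899 and 0.82). Both intervals stayed within 0.92 to 1.18-fold. Daxx exceeded Atrx per kilobase by 4.13 to 4.63-fold in the group means of CPM per kb, but by 2.21 to 2.77-fold in the deposited FPKM. Livers with more of one partner tended to have less of the other (r -0.38, rho -0.39 over 20 libraries, and r -0.60 after centring on the group means). The Kupffer cell marker sum, which correlated positively with Daxx, correlated negatively with Atrx (r -0.58, rho -0.49, r -0.63 after centring and -0.37 without the 2 libraries farthest from the median sum). The part of these cells in the relation between Daxx and Atrx was not tested.

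FACT is a dimer of the products of Ssrp1 and Supt16, which loosens nucleosomes ahead of the polymerase. Ssrp1 (ENSMUSG00000027067.16, chr2:85037234-85047109, plus strand) had 53.6 to 59.5 CPM in the Rosa26 group and 50.3 to 58.2 CPM in the HIRA group at 3 weeks. The 6-month ranges were 49.0 to 54.3 and 47.5 to 57.7 CPM. The arms overlapped at both times, and the log2 fold changes were -0.07 ± 0.06 and 0.00 ± 0.06. The intervals were the tightest of the family, 0.87 to 1.04-fold at 3 weeks and 0.91 to 1.09-fold at 6 months. Within groups the SD of Ssrp1 was 0.08 on the log2 CPM scale, lower than in all but 1.1% of the 12903 genes with a mean of at least 1 CPM.

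Supt16 (ENSMUSG00000035726.8, chr14:52160414-52197416, minus strand) was more variable than its partner. The 3-week values were 18.2, 19.6, 16.6, 13.9 and 15.9 CPM in the Rosa26 group and 15.3, 19.9, 19.4, 14.9 and 20.5 CPM in the HIRA group. The 6-month values were 16.5, 18.2, 13.5, 13.9 and 15.6 CPM in the Rosa26 group and 16.9, 17.0, 15.7, 17.1 and 20.4 CPM in the HIRA group. The highest of these was replicate 5, the library that went against its sex label, and the others of the group lay between 15.7 and 17.1 CPM. The log2 fold changes were 0.09 ± 0.11 and 0.16 ± 0.11 (edgeR adjusted p 0.904 and 0.533). Leaving out single libraries moved the first between 0.03 and 0.15. The second was 0.10 without that replicate, 0.05 without Rosa26 replicate 3 as well, and 0.23 without Rosa26 replicate 2. The ratio of Ssrp1 to Supt16 per kilobase averaged 4.54 and 4.52 in the Rosa26 groups (3 weeks and 6 months) and 4.06 and 4.01 in the HIRA groups. In the deposited FPKM it averaged 4.55 and 4.39 in the Rosa26 groups and 3.97 and 4.5 in the HIRA groups, so the order of the arms at 6 months was the other way round. In CPM per kb the SD of the log2 ratio was 0.13 to 0.27 within groups and the arms overlapped at both times. Across the 20 libraries the FACT subunits had an r of 0.05 (rho 0.03).

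Supt6 (ENSMUSG00000002052.6, chr11:78206746-78245987, minus strand) encodes SPT6, which rebuilds nucleosomes behind RNA polymerase II. Its values at 3 weeks were 48.5 to 55.0 CPM in the Rosa26 group and 45.7 to 56.4 CPM in the HIRA group. At 6 months the Rosa26 livers had 49.6, 52.8, 42.2, 42.9 and 47.2 CPM and the HIRA livers 54.9, 51.9, 49.6, 49.1 and 50.5 CPM. The control livers reached lower at the later time, and the arms overlapped. The guide effect was -0.03 ± 0.07 at 3 weeks and 0.13 ± 0.07 at 6 months on the log2 scale (edgeR adjusted p 0.96 and 0.437). Between the times the Rosa26 arm gave -0.16 ± 0.07 (edgeR p 0.0383, adjusted p 0.355) and the HIRA arm 0.00 ± 0.07 (adjusted p 0.992), and the difference between the 2 changes was 0.16 ± 0.10 (adjusted p 0.833). Supt6 and Supt16 were the pair of members that varied most alike, with r 0.75 and rho 0.70 over the 20 libraries and r 0.74 after centring on the group means. Part of Supt6 overlaps Sdf2 on the opposite strand, in 3.41% of its exon bases, and Sdf2 had 58.8% as many counts.

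Dek (ENSMUSG00000021377.15, chr13:47084775-47106201, minus strand) encodes a chromatin protein that binds H3.3 and alters DNA topology. The Rosa26 livers at 3 weeks had 21.6 to 33.8 CPM and the HIRA livers 24.5 to 30.3 CPM. Later, the Rosa26 livers had 21.7 to 27.7 CPM, and the HIRA livers lay within 25.5 to 26.7 CPM. The log2 fold changes were -0.04 ± 0.10 and 0.03 ± 0.10 (edgeR adjusted p 0.963 and 0.917). Exons of Kdm1b, on the opposite strand and with 73.9% as many counts, cover 15.9% of the exon bases of Dek.

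Nasp (ENSMUSG00000028693.15, chr4:116601052-116627941, minus strand) encodes the protein that holds the pool of free H3-H4 and shields it from degradation. In edgeR with all libraries it was the member whose values differed most between the times in each arm. In the Rosa26 arm with FPKM, Daxx (-0.276) and Dek (-0.242) changed more than Nasp (-0.231). Without Rosa26 6 months replicate 3, Asf1b (-0.268) and Daxx (-0.253) changed more than Nasp (-0.205) in that arm. At 3 weeks Nasp had 17.3, 16.8, 15.2, 15.5 and 11.4 CPM in the Rosa26 livers. The HIRA livers had 18.2, 17.7, 17.9, 18.5 and 18.2 CPM. All 5 HIRA livers were above all 5 controls, of which replicate 5 was the lowest. The log2 fold change was 0.25 ± 0.12 (SE, edgeR p 0.0508, adjusted p 0.562), and it was 0.16 without that control and 0.30 without Rosa26 replicate 1. The summed B cell markers (3 genes, all detected) also separated the arms at 3 weeks, with 5.07 to 7.09 CPM in the Rosa26 livers and 8.06 to 13.5 CPM in the HIRA livers. Of these 3 genes 2 had an unadjusted p under 0.05 in edgeR, DESeq2 and limma-voom, and 0 passed an adjusted p of 0.05 in any of them. The median log2 fold change of the 3 was 0.80 beside -0.01 over all genes. It was 0.52 for 14 mitosis genes and -1.89 for 2 neutrophil markers. Of the neutrophil markers 2 had an unadjusted p under 0.05 in edgeR and DESeq2, and 0 in limma-voom. The part of B cells, neutrophils and dividing cells in the Nasp values was not tested. At 6 months the Rosa26 livers had 11.7, 15.9, 10.7, 11.5 and 13.7 CPM and the HIRA livers 14.8, 15.9, 15.5, 11.1 and 13.3 CPM. The arms then overlapped, at 0.15 ± 0.12 on the log2 scale (edgeR adjusted p 0.591). This difference ran from 0.09 without Rosa26 replicate 3 to 0.25 without Rosa26 replicate 2 (edgeR p 0.0484, adjusted p 0.328).

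All 5 HIRA livers at 3 weeks had more Nasp than all 5 HIRA livers at 6 months. The change between the times was -0.36 ± 0.12 on the log2 scale in the HIRA arm (edgeR p 0.00717, adjusted p 0.359) and -0.26 ± 0.12 in the Rosa26 arm (edgeR p 0.0407, adjusted p 0.362). These 2 changes differed by -0.09 ± 0.17 (edgeR adjusted p 0.963), with an interval of 0.73 to 1.2-fold. Marker lists of several cell types also differed in median between the times. The median log2 changes in the Rosa26 and HIRA arms were -0.42 and -0.29 for 4 endothelial markers, -0.28 and -0.13 for 6 hepatocyte markers, 0.79 and 0.42 for 3 B cell markers, and 0.71 and 0.79 for 4 T and NK cell markers, beside 0 and 0.03 over all genes. In edgeR 2 endothelial, 2 hepatocyte and 2 B cell markers had an unadjusted p under 0.05 in the Rosa26 arm and 2 hepatocyte markers in the HIRA arm. Of these 4 lists edgeR and limma-voom called 0 genes, and DESeq2 called 1 hepatocyte marker, lower in the Rosa26 arm. Medians in the Rosa26 and HIRA arms were 0.56 and 0.49 for 5 erythroid markers, and -0.92 and 0.26 for 2 neutrophil markers. The 14 mitosis genes had -0.23 and -0.4. Of the erythroid markers 1 had an unadjusted p under 0.05 in edgeR in each arm, and DESeq2 called 1, higher in the HIRA arm. The part of these cells in the Nasp values was not tested. In none of the fits that left out a library did Nasp pass an adjusted p of 0.05 in either arm, and the smallest adjusted p of those fits was 0.273 in the HIRA arm and 0.166 in the Rosa26 arm. Its RefSeq promoter, shown because Nasp was the member whose groups did not overlap, carries a CCAAT on each strand and a TTTGAA. The letters TTTGAA (reverse complement TTCAAA), the core of the cell cycle homology region bound by DREAM complexes, were present in 16.0% of all windows. CCAAT and TTTGAA matches are in capitals.
Nasp, chr4:116627952-116628201, minus strand: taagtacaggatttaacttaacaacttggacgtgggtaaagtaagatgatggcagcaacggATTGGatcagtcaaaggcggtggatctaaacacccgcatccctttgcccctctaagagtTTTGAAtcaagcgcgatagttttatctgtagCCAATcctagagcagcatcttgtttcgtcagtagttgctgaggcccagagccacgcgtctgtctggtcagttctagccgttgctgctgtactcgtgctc

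The last 3 members supply histones to replicating DNA. Asf1b (ENSMUSG00000005470.8, chr8:83955507-83970197, plus strand), the paralog of ASF1 that is tied to proliferating cells, had 9 to 42 counts per library. Chaf1a (ENSMUSG00000002835.9, chr17:56040439-56072289, plus strand) and Chaf1b (ENSMUSG00000022945.12, chr16:93883901-93906115, plus strand) encode the large and middle subunits of chromatin assembly factor 1 and had 29 to 70 and 18 to 51 counts. At the mean count, counting error alone was 22.6% for Asf1b, 14.8% for Chaf1a and 17.7% for Chaf1b, against 2.93% for Ssrp1.

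Asf1b at 3 weeks had 0.608, 0.549, 1.25, 0.496 and 1.12 CPM in the Rosa26 group and 1.01, 0.656, 1.06, 1.01 and 0.954 CPM in the HIRA group. The 6-month values were 0.683, 0.652, 1.42, 0.417 and 0.917 CPM in the Rosa26 group and 0.743, 0.592, 1.74, 0.831 and 1.17 CPM in the HIRA group. In every group the highest liver was replicate 3, and the arms overlapped at both times. The log2 fold changes were 0.22 ± 0.35 and 0.31 ± 0.34 (edgeR adjusted p 0.935 and 0.733), and the interval at 6 months reached from 0.76 to 2.03-fold. Both differences rested on single livers. The first ran from 0.09 without replicate 4 to 0.43 without replicate 3 of the Rosa26 group, and that replicate 3 also had the most neutrophil markers (2 genes, 38.1 CPM against 2.37 to 7.24 CPM in its group). The second was 0.01 without replicate 3 of the HIRA group and 0.60 without replicate 3 of the Rosa26 group (edgeR adjusted p 0.994 and 0.39). The former is the liver that stood apart in stellate cell markers and mitosis genes, and it had the highest Ptprc (25.3 CPM) and T and NK cell markers (17.3 CPM) of its group. Over the 5 stellate cell markers the median log2 fold change at 6 months was 0.51 beside 0.03 over all genes, with 2 at an unadjusted p under 0.05 and 0 at an adjusted p under 0.05 in edgeR, DESeq2 and limma-voom. The part of these cells in the Asf1b values was not tested. Its paralog Asf1a, the partner of HIRA in H3.3 deposition, gave 0.12 ± 0.14 at both times (edgeR adjusted p 0.888 and 0.751). Exons of Mcm9 on the opposite strand, a gene with 95.2% as many counts, cover 48.0% of the exon bases of Asf1a, so its level is uncertain.

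Chaf1a had 1.44 to 3.1 CPM in the Rosa26 group and 1.79 to 2.24 CPM in the HIRA group at 3 weeks, and 2.0 to 3.01 and 1.32 to 2.53 CPM at 6 months. The log2 fold changes were -0.07 ± 0.21 and -0.19 ± 0.21 (edgeR adjusted p 0.973 and 0.726). Chaf1b had 0.912 to 1.4 and 1.21 to 1.89 CPM at 3 weeks, and 1.11 to 2.19 and 1.41 to 1.96 CPM at 6 months. Its log2 fold changes were 0.24 ± 0.21 and 0.21 ± 0.21 (edgeR adjusted p 0.847 and 0.692). Leaving out single libraries moved its first value between 0.13 and 0.30 and its second between 0.13 (without Rosa26 replicate 1) and 0.41. Without Rosa26 replicate 3 the 6-month values were 0.41 ± 0.20 for Chaf1b (edgeR p 0.0532, adjusted p 0.303) and -0.07 ± 0.21 for Chaf1a (adjusted p 0.907), which reached -0.30 without HIRA replicate 3. The arms overlapped for both subunits at both times. The ratio of Chaf1a to Chaf1b per kilobase averaged 0.87 and 0.86 in the Rosa26 groups (3 weeks and 6 months) and 0.73 and 0.62 in the HIRA groups, with SDs of 0.29 to 0.48 on the log2 scale and overlapping ranges. In the deposited FPKM the same ratio was lower, at 0.55 and 0.53 in the Rosa26 groups and 0.45 and 0.42 in the HIRA groups. Of the exon bases of Chaf1a, 52.5% are also exons of Ubxn6 on the opposite strand, a gene with 872% of its counts. Whether the counting used strand is not stated, so the level of Chaf1a is uncertain.

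**Figure D3:**
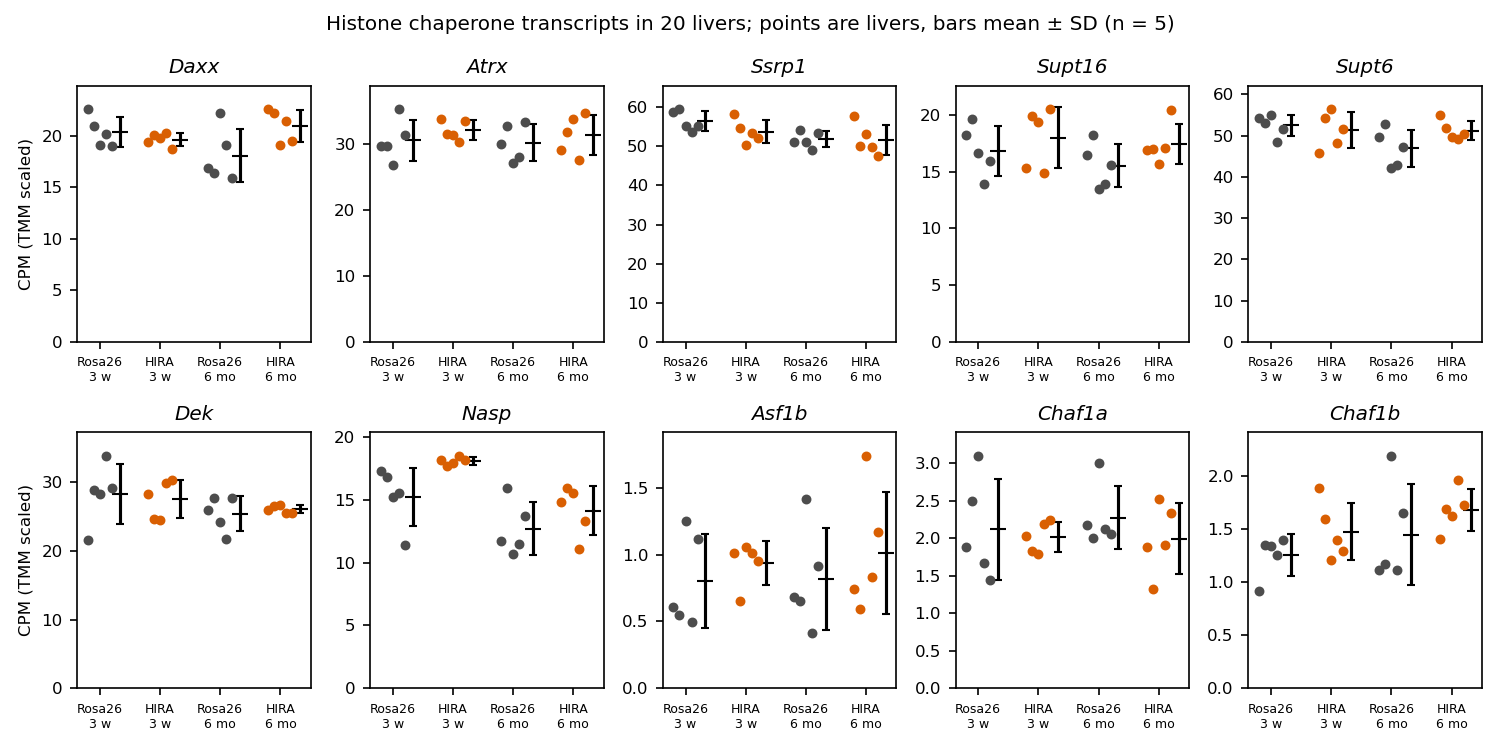
CPM of the 10 genes (y axis, from 0, TMM scaled) in the 4 groups, with 1 point per liver in order of replicate number and a bar for mean ± SD (n = 5). Nasp in the HIRA group at 3 weeks lies within 17.7 to 18.5 CPM, above every other group, and replicate 3 of the Rosa26 group at 6 months is the highest of its group in Daxx, Asf1b, Chaf1a and Chaf1b.

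The promoters of these 3 replication-linked genes are shown because their transcripts were the scarcest of the family. Their within-group spread was also the largest, counting error included. Capitals mark TTCCCGC, a form of the E2F site (reverse complement GCGGGAA, in 3.82% of all windows), and the CCAAT and TTTGAA letters described above. Asf1b carries 4 CCAAT matches, all on the strand opposite to the gene, and 1 TTTGAA that begins 14 bases before the start. At least 3 CCAAT matches with a TTTGAA occurred in 0.381% of all windows, a share that describes the pattern of this promoter and is no test of it. Chaf1a has a TTCCCGC and a CCAAT, and Chaf1b a TTCCCGC on the opposite strand.
Asf1b, chr8:83955444-83955693, plus strand: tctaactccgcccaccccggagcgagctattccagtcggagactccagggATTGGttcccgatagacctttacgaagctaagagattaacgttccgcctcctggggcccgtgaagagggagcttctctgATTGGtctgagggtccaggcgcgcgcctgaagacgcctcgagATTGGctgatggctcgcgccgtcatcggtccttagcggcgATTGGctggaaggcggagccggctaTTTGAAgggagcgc
Chaf1a, chr17:56040166-56040415, plus strand: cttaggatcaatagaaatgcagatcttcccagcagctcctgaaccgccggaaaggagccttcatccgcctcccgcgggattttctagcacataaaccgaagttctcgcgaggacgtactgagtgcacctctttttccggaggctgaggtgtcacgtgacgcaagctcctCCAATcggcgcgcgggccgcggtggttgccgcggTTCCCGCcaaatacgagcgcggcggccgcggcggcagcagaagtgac
Chaf1b, chr16:93883651-93883900, plus strand: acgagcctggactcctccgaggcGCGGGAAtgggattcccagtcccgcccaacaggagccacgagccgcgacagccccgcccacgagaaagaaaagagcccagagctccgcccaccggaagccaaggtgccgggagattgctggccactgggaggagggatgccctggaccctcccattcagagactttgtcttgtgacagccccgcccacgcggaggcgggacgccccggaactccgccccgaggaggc

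Over the family, TTCCCGC was found in 3 of 10 members (Chaf1a, Chaf1b and Ssrp1), CCAAT in 6 (Asf1b, Atrx, Chaf1a, Daxx, Dek and Nasp) and TTTGAA in 3 (Asf1b, Nasp and Ssrp1). The E2F form TTGGCGC (reverse complement GCGCCAA, in 1.97% of windows) was found in Dek. Supt16 and Supt6 held none of the 4, as did 52.5% of all windows. The search covered both strands of every RefSeq start site listed for a member, 13 windows in all, and a match is a description of letters only. A member was counted if any of its windows matched, whereas the percentages are per window.

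The spread between livers of a group was smallest in the abundant members Ssrp1 and Supt6 and largest in the scarcest. Within-group SDs on the log2 CPM scale were 0.10 in Supt6, 0.12 in Atrx, 0.13 in Daxx, 0.16 in Dek, 0.18 in Supt16 and 0.20 in Nasp. The scarce members had 0.28 (Chaf1b), 0.31 (Chaf1a) and 0.51 (Asf1b). Among the 12903 genes with a mean of at least 1 CPM, Supt6 was at the 6.7th percentile of spread and Daxx at the 15.8th, whereas Chaf1b was at the 67.6th and Chaf1a at the 71.7th. Asf1b (0.894 CPM) was below that level and was not ranked.

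**Figure D4:**
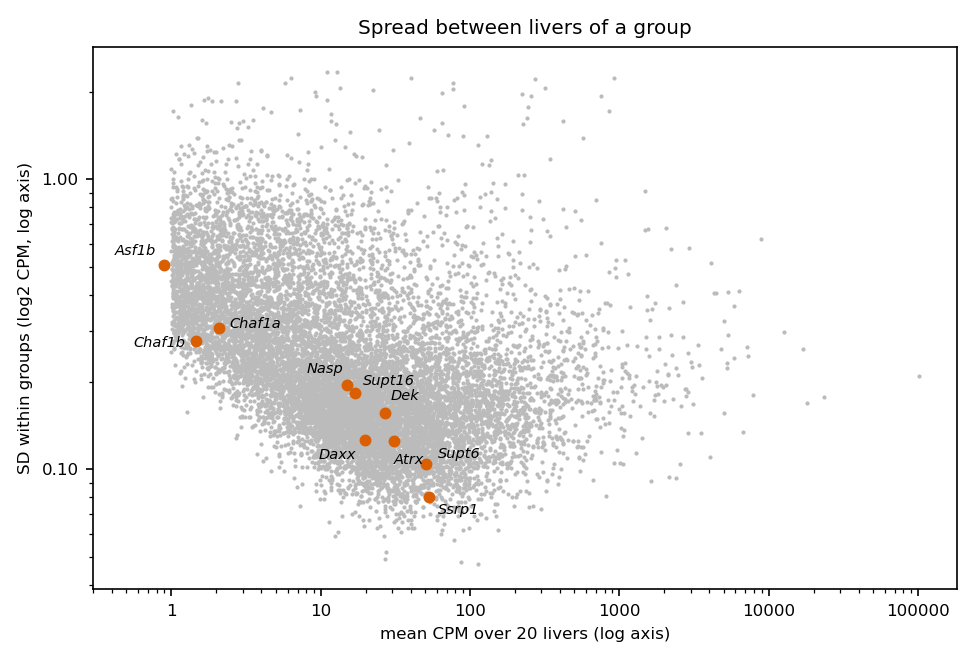
Within-group SD of log2 CPM (y axis, log axis) against mean CPM over 20 livers (x axis, log axis) for the 12903 genes with at least 1 CPM in grey, and for the 10 chaperones in orange. Ssrp1, with an SD of 0.08, lies near the lower edge and Asf1b, with 0.505, at the left.

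Asf1b and genes of mitosis were high in some of the same livers. The 14 mitosis genes (all detected) summed to 18.8 to 43.6 CPM in the Rosa26 group and 27.0 to 53.5 CPM in the HIRA group at 3 weeks, and to 15.1 to 42.5 and 12.9 to 58.2 CPM at 6 months. Over the 20 libraries Asf1b and this sum had r 0.61 and rho 0.59, with r 0.63 after centring on the group means and 0.49 without the 2 libraries farthest from the median sum. For Chaf1a and Chaf1b, r with the same sum was 0.35 and 0.23. The relation of Asf1b to the 20 S phase genes was weaker and rested on few livers, with r 0.40, rho 0.27, r 0.62 after centring and 0.13 without the 2 libraries farthest from the median sum. Chaf1a and Chaf1b had r 0.35 and 0.36 with the S phase sum, and 0.21 and 0.02 without the 2 farthest libraries. The other 7 members had negative r with that sum, from -0.11 in Daxx to -0.55 in Nasp (rho -0.41, r -0.42 after centring and -0.36 without the 2 farthest). The sign did not hold in all of them. After centring r was 0.3 in Daxx and -0.03 in Dek, and without the 2 farthest libraries it was -0.48 and 0.0. Supt6 had r -0.53, Supt16 -0.50 and Atrx -0.42, and without the 2 farthest libraries these were -0.22, -0.24 and -0.33. Asf1b also had an r of 0.59 with Ptprc, the pan-leukocyte marker, and of 0.34 without the 2 libraries farthest from its median. Ptprc ranged from 7.94 to 17.6 and 10.3 to 14.8 CPM at 3 weeks (Rosa26 and HIRA groups) and from 6.16 to 35.3 and 5.13 to 25.3 CPM at 6 months. The part of immune cells in the Asf1b values was not tested, and the points share libraries and depth.

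**Figure D5:**
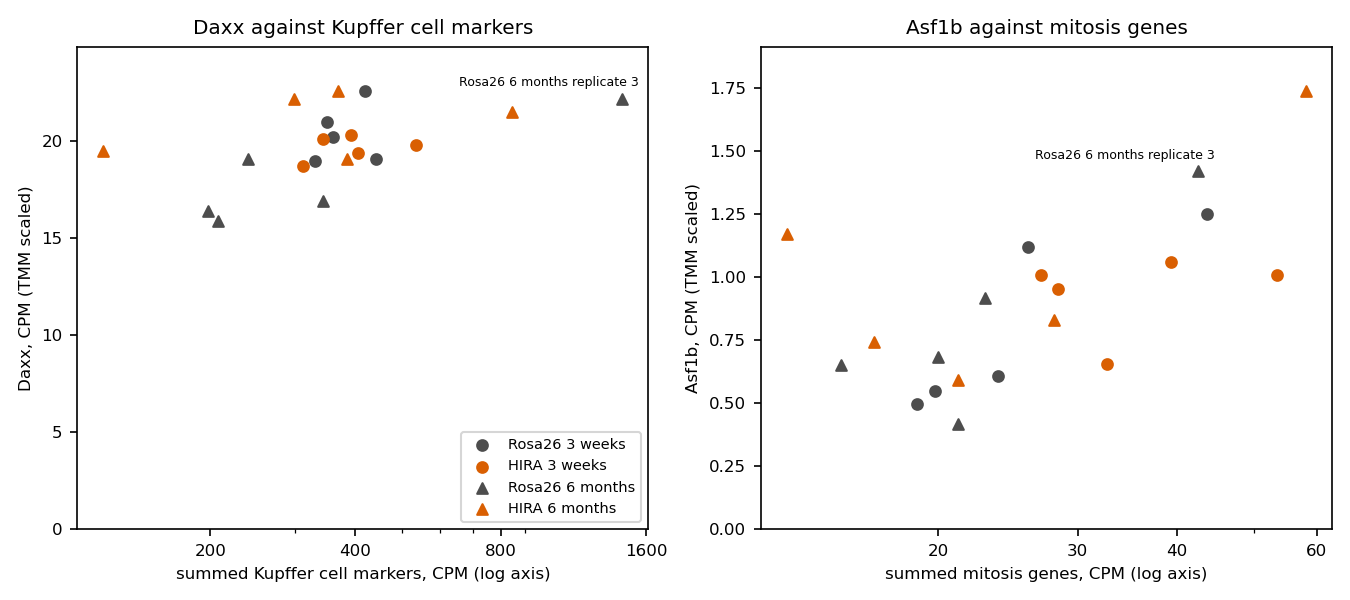
Daxx against the summed Kupffer cell markers (left) and Asf1b against the summed mitosis genes (right), all in CPM with log x axes, 1 point per liver in each of the 4 groups. Replicate 3 of the Rosa26 group at 6 months, with 1430 CPM of Kupffer cell markers and 1.42 CPM of Asf1b, is named in both panels.

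For each member, the 3 genes with the highest Pearson r of log2 CPM were sought among 11902 named genes with at least 1 CPM over the 20 libraries. Picking the highest of so many over few libraries gives high r values by itself, and that level was not estimated. Spearman rho of the pairs ran from 0.54 (Chaf1a and Tgs1) to 0.87 (Atrx and Atp11b). Asf1b was most like E2f1 (r 0.79), the cell cycle transcription factor, followed by Ywhah (0.78) and Stmn1 (0.77). Nasp was most like Doc2g (0.87), Phf23 (0.85) and Nob1 (0.83). Ssrp1 was most like Rsl24d1 and the ribosomal protein gene Rpl8 (0.82 each) and then Rps3a1 (0.80), another ribosomal protein gene. Supt16 and Supt6 shared their nearest gene, Ddx19b (0.85 and 0.86). They were followed by Nktr (0.82) and Cnot1 (0.81) for Supt16 and by Rcor1 (0.83) and Herc1 (0.82) for Supt6. Atrx was most like Trpm7 (0.84), Atp11b (0.83) and Sh3d19 (0.82), and Dek most like Celf1 (0.85), Ncoa2 (0.82) and Cnot6l (0.81). The nearest genes of Daxx were Srcin1 (0.81), Stxbp2 (0.78) and Pdss1 (0.76), those of Chaf1a Chfr and Chmp4b (0.70 each) and Tgs1 (0.69), and those of Chaf1b Ankrd12 (0.76), Wdfy3 (0.74) and Tusc3 (0.73).

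The genes around this family were counted in the same fit, where 0.197% of all genes passed at 3 weeks and 1.31% at 6 months, 8.87% and 15.5% had an unadjusted p under 0.05, and the median log2 fold changes were -0.01 and 0.03. Of 27 further chaperones, 0 passed edgeR at an adjusted p under 0.05 at 3 weeks (1 had an unadjusted p under 0.05) and 1 was higher at 6 months (2 with such a p). That gene was Ptma, whose product prothymosin alpha binds histones (log2 fold change 0.31 ± 0.07, edgeR adjusted p 0.0372). Their median log2 fold changes were -0.02 and 0.02. Of 7 genes of the HIRA complex and H3.3, H3f3a was the 1 that passed, and it rose at both times, by 0.38 ± 0.07 at 3 weeks (edgeR adjusted p 0.0309) and 0.33 ± 0.07 at 6 months (0.0292). It encodes the histone H3.3 that HIRA and DAXX deposit, and it has retrocopies in the genome, so its counts are uncertain. The other H3.3 gene, H3f3b, gave -0.11 ± 0.11 and -0.10 ± 0.11 (adjusted p 0.866 and 0.74). Of 20 S phase genes, 0 passed at 3 weeks (1 had an unadjusted p under 0.05) and Tk1, a thymidine kinase, was lower at 6 months (-0.63 ± 0.15, edgeR adjusted p 0.0384), when 4 had such a p. Their medians were 0.04 and -0.06. Of 14 mitosis genes, 0 passed at either time, with 1 at an unadjusted p under 0.05 each time, and the medians were 0.52 and 0.32. DESeq2 and limma-voom gave the same counts called for these 4 lists, except 2 further chaperones higher at 6 months by DESeq2, and each had 1 gene under an unadjusted p of 0.05 where edgeR called 0. When edgeR was fitted to only the libraries compared, 0 of 20832 genes passed at 6 months. The calls of Ptma, H3f3a and Tk1 at that time were therefore lost in that fit.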

How the data were processed

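Liver RNA was sequenced in 20 libraries, and groups and replicate numbers came from the sample titles. The authors used STAR on mm10, and the counts they deposited are raw and per gene. The study's methods name HOMER for counting and the submitters' processing notes HTSeq, and whether strand was used is not given in the sources used here. FPKM values, also deposited by the authors, were tested with limma after adding 1 and taking log2. No column of another series was used.

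The table of 55421 genes was cut at 10 counts in total, and 22867 genes were tested. The test was edgeR's quasi-likelihood test (version 4.0.16, glmQLFit and glmQLFTest) with TMM scaling and Benjamini-Hochberg adjustment over all genes tested. A mean per group was fitted to all 20 libraries, and contrasts came from that fit. A gene was called at an adjusted p under 0.05. No member reached an absolute log2 fold change of 1, the other threshold of the study. Values per library are CPM with TMM-scaled library sizes, and intervals cover 95%. Pairs of replicates differed by more than sampling noise. The simulated data on which the fit was tested are not quoted.

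The 10 members are all named, with Hira and Asf1a, the 3 genes most alike to each member among those averaging 1 CPM or more, and the called genes of 4 lists. H3f3b was named after its values were seen. Members and lists were chosen with earlier results of these data known. Alternatives were DESeq2 (1.42.0) as size factors and as a test, limma-voom (3.58.1), other count filters, only the libraries compared, a replicate block and leaving out each library. Other tools were R 4.3.3, matplotlib 3.10.9, scipy 1.17.1, pandas 2.3.3, numpy 2.4.6 and Python 3.11.15.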

Additional observations from a re-analysis of the deposited data

Results flagged for a closer look

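In 4 of 40 combinations of a gene and a group, 1 liver lay far from the other 4 by Dixon's criterion, where chance gives 2. Asf1b in the HIRA group at 3 weeks had 0.656 CPM in replicate 2, against 0.954 to 1.06 CPM in the others. Chaf1a in the Rosa26 group at 6 months had 3.01 CPM in replicate 3, against 2.0 to 2.18 CPM, and this liver also had the highest Kupffer cell marker sum. Chaf1b in the Rosa26 group at 3 weeks had 0.912 CPM in replicate 1, against 1.26 to 1.4 CPM. Supt16 in the HIRA group at 6 months had 20.4 CPM in replicate 5, against 15.7 to 17.1 CPM, and this is the library whose sex-linked counts went against its label. Causes of these values were not tested.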

How the results depend on the processing

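Of 1140 member fold changes recomputed under an alternative, 84 changed sign, in 21 of 50 results, and 76 of the 84 were within 0.1 of 0 on the log2 scale with all libraries. The number of members called stayed at 0 in each comparison under the alternatives, except that without both Rosa26 6 months replicate 3 and HIRA 6 months replicate 5 it was 1 at 6 months (Daxx). That alternative (the first pair), one without Rosa26 replicate 3 and HIRA replicate 4 (the second pair), one without all 3, and FPKM ratios were chosen after seeing the data. Log2 changes over time in the HIRA arm with another sign were Supt6 with limma-voom (0.0008), filterByExpr (0.00036), FPKM (0.005), the first pair left out (0.0024), the second (0.0079) and all 3 (0.023), Atrx without the second pair (0.0049), and with FPKM also Asf1b (-0.09), Chaf1a (0.021) and Ssrp1 (0.062). In the Rosa26 arm they were Atrx with FPKM (0.012), and, without the first pair, the second and all 3, Atrx (0.019, 0.02 and 0.019), Asf1b (-0.269 each) and Chaf1a (-0.014 each). Between guides at 6 months they were Ssrp1 with FPKM (0.11), without the first pair (0.021) and without all 3 (0.046), and Atrx without the first pair (-0.021). For the difference of the guide effects they were Chaf1b with limma-voom (0.017) and without the first pair (0.163), the second (0.111) and all 3 (0.079), Asf1b with FPKM (-0.235), Chaf1a without the second pair (0.0097), and Supt16 with FPKM (-0.048), without the first pair (-0.039) and without all 3 (-0.05).

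Leaving out each library in turn gave these ranges where the sign changed. Between guides they were Chaf1a -0.18 to 0.11, Dek -0.124 to 0.03 and Supt6 -0.073 to 0.0048 at 3 weeks, and Dek -0.017 to 0.067 and Ssrp1 -0.055 to 0.025 at 6 months. Over time in the Rosa26 arm they were Atrx -0.062 to 0.038, Asf1b -0.268 to 0.24 and Chaf1a -0.014 to 0.286. In the HIRA arm they were Atrx -0.071 to 0.0088, Asf1b -0.168 to 0.256, Chaf1a -0.108 to 0.101, Supt16 -0.109 to 0.0056 and Supt6 -0.042 to 0.035. For the difference of the guide effects they were Atrx -0.072 to 0.028, Asf1b -0.204 to 0.38, Chaf1b -0.108 to 0.176 and Nasp -0.153 to 0.00022. Without single libraries the number of members called ranged from 0 to 0.

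Replicate numbers were not taken to pair the libraries, since the labels do not say that they do. Of 30 same-numbered pairs 14 had a correlation of deviations over 0.1, and 5 of 20 libraries correlated best with their own number. The share over 0.1 was not computed for pairs of different numbers, so these values cannot decide whether the numbers pair the libraries. The numbers differed, with 5 of 6 pairs over 0.1 for replicate 3 (0.02 to 0.33) and 1 to 3 of 6 for the others. The replicate block called 0 members in each comparison, and turned the Asf1b difference to -0.00016. Over all genes it called 54, 324, 151, 37 and 0 (guides at 3 weeks and 6 months, times in the Rosa26 and HIRA arms, and the difference), against 45, 299, 74, 15 and 0.

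Counts over all genes depended on the test and on the libraries. At 3 weeks they ran from 23 (limma-voom) to 225 (DESeq2), and 4 to 57 without single libraries. At 6 months they ran from 0 (only the libraries compared) to 1076 (without the first pair), with 49 to 395 without single libraries. Over time they ran from 7 (FPKM) to 506 (DESeq2) in the Rosa26 arm, and 1 (without Rosa26 3 weeks replicate 1) to 136 (without Rosa26 6 months replicate 2) without single libraries. In the HIRA arm they ran from 7 (limma-voom and FPKM) to 143 (DESeq2), and 5 to 31 without single libraries. Asf1b, Chaf1a and Chaf1b had fewer than 50 counts per library on average. Their within-group SDs were 1.42, 1.24 and 1.21-fold, beside counting errors of 22.6%, 14.8% and 17.7% at the mean count. How much of their spread was counting error was not tested. The causes of these changes were not tested.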
